A study of Mus musculus with 26 samples.

Results

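The enzymes that write, copy and remove 5-methylcytosine were described across mouse B cell progenitors of a study of CXCR4, the receptor of the chemokine CXCL12, and of immunoglobulin kappa light chain recombination. The members were the rows of the RNA-seq count table named Dnmt1, Uhrf1, Dnmt3a, Dnmt3b, Tet1, Tet2 and Tet3. They were 7 of 23762 genes in the table, and 7 of 7 passed the filter on low counts that left 14862 genes for testing. The 18 RNA-seq libraries fell into 9 groups of 2. Small pre-B cells, resting progenitors in which light chain rearrangement takes place, came sorted from wild-type or CXCR4-/- mice. Cultures labelled pre-B received interleukin 7 (IL-7, a cytokine that keeps early B cells dividing), neither factor, CXCL12 without IL-7, IL-7 with CXCL12, or CXCL12 and the agent labelled ERK inhibitorII without IL-7. Cultures labelled CXCR4-/- small pre-B received no IL-7, alone or with CXCL12. In 2 groups of sufficient cultures the names of the libraries disagree on the stage: replicate 2 without IL-7, in its title, and replicate 2 with CXCL12 alone, in its column of the count table, are named as small pre-B, while their cell type label and replicate 1 say pre-B. The labels give no age, number of animals or way of deletion, and they do not say that the 2 libraries of a group came from separate animals or cultures. The differences within these pairs, which may be technical, are the only spread the tests have. This spread was estimated over all 9 groups together, so libraries outside a comparison also bear on its p-values.

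DNA methylation in mammals sits mainly on cytosines of CG pairs and is kept through cell division by copying. UHRF1 binds the CG pairs left methylated on the old strand behind the replication fork and recruits DNMT1, which methylates the new strand. DNMT3A and DNMT3B set methylation on sites that carried none, and the TET enzymes oxidise 5-methylcytosine, from where the mark is lost by dilution or by base excision started by TDG. In the B lineage, TET2 and TET3 are known for their part in light chain rearrangement and in opening B cell enhancers. The count table holds RNA only, so no value below is a level of methylation or of enzyme activity.

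Promoter sequences of RefSeq (GRCm38.p6), from 250 bases before to 50 bases after an annotated start, matched all 7 members in 12 windows. Both maintenance genes are shown because both were called in the sorted cells and with CXCL12 without IL-7, and Dnmt3b because it was called in the second of these. Capitals mark matches, on either strand, to the E2F-type letters TTTNNCGC or to CCAAT, the core of the NF-Y motif. The Dnmt1 window lies at chr9:20952574-20952873 on the minus strand, the Uhrf1 windows at chr17:56303087-56303386 and chr17:56304063-56304362 on the plus strand, and the Dnmt3b window at chr2:153649199-153649498 on the plus strand.
Dnmt1 window 3: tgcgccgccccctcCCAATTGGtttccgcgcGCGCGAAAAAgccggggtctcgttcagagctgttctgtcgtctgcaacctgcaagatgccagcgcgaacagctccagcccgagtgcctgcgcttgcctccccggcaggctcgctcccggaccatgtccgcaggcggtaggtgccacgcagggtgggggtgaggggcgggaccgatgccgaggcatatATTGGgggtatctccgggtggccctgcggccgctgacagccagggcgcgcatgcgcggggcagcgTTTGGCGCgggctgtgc
Uhrf1 window 1: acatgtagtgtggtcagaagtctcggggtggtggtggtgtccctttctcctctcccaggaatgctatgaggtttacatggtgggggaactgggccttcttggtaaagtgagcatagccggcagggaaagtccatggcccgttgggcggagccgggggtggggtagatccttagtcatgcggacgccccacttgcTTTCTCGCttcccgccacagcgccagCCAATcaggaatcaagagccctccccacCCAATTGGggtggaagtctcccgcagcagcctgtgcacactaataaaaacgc
Uhrf1 window 2: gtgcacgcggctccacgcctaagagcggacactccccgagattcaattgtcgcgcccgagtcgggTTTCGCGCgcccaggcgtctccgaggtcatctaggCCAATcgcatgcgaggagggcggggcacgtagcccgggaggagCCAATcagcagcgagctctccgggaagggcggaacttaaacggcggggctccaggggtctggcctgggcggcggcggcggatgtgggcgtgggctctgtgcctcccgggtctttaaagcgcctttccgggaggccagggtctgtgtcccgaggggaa
Dnmt3b window 1: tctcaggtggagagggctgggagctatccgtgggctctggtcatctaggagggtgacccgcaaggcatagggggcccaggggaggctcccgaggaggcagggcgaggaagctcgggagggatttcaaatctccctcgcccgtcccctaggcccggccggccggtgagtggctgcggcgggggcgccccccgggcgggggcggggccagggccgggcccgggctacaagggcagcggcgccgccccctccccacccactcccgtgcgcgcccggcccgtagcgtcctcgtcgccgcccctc
The E2F-type letters were found 3 times in this Dnmt1 window, in part overlapping, and 1 time in each Uhrf1 window. They were not in the other Dnmt1 windows and in none of the windows of Dnmt3a, Dnmt3b, Tet1, Tet2 and Tet3, and 5.17% of 32851 promoters held them. CCAAT was found 3, 3 and 2 times in the same Dnmt1 and Uhrf1 windows, in Dnmt1 and Uhrf1 window 1 partly as CCAATTGG, which counts once on each strand. It was in Dnmt1 window 1 and the window of Tet3 too, and in 37.4% of all promoters. The Dnmt1 window and Uhrf1 window 2 each held 33 CG pairs, against a median of 7 over all promoters, and the Tet2 window held 57. Of the Dnmt1 windows, only the one that held the E2F-type letters is shown. These letters include a CG pair, so their share over all promoters is not a like background for windows rich in CG. A match describes letters only.

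Total counts ran from 17257914 to 50235192 per library. The summed level of 8 B-lineage markers, among them Cd79a and Pax5, lay between 3306.5 and 10444.3 CPM in every library. CPM are read counts relative to library size, scaled by TMM, the unit of all levels here. Sorted wild-type cells had Cxcr4 itself at 942.9 and 921.8 CPM. It was at 37.2 and 408.8 CPM in those labelled CXCR4-deficient, so replicate 2 went against its label in part. The 9 myeloid markers summed to 5449.1 and 5386.9 CPM in sorted wild-type cells and to 6541.2 and 1124.8 CPM in the deficient ones, so replicate 2 stood apart in these too. In cultures labelled CXCR4-deficient Cxcr4 lay between 113.9 and 136.9 CPM, within the range of the other cultures (112.4 to 321.6 CPM). The labels do not say which part of the gene is deleted, so a whole-gene count checks them only in part. Gapdh was at 1398.7 to 1730 CPM in the 4 libraries with both factors or with the ERK inhibitor and at 12.3 CPM or less elsewhere, and the CXCR4-deficient cultures had almost no stromal transcripts (0.33 to 1.81 CPM in sum). Differences between these 3 sets of cultures cannot be told apart from differences in how each set was made. The mean chi-square between the 2 libraries of a group was 264.5 for CXCR4-deficient cultures without IL-7, of which replicate 1 stood apart, and 1.34 to 44.7 elsewhere. The libraries of cultures without IL-7 (1.48) and of those with CXCL12 alone (1.34) were nearly identical, so their spread is close to counting noise.

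Dnmt1 and Uhrf1, the pair that copies methylation at replication, were low in 2 of the 9 groups and high in most others. Dnmt1 was at 287.9 and 299.8 CPM in sorted wild-type cells and at 750 and 723.2 CPM in sorted CXCR4-deficient cells. In culture it was at 764.2 and 767.1 CPM with IL-7, at 709.2 and 687.9 CPM without it, and at 226.3 and 220.5 CPM without IL-7 with CXCL12. With both factors it was at 721.9 and 727.3 CPM, and with the ERK inhibitor at 590.8 and 618.1 CPM. Sorted wild-type cells and cultures with CXCL12 alone lay below every other library. The nearest, at 328.4 CPM, was replicate 1 of the CXCR4-deficient cultures without IL-7, whose replicate 2 was at 761.4 CPM. Both libraries of the CXCR4-deficient cultures with CXCL12 lay above the rest, at 901.8 and 950.4 CPM.

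Uhrf1 was at 266.8 and 286.4 CPM in sorted wild-type cells and at 649.8 and 602.1 CPM in sorted CXCR4-deficient cells. It was at 632.5 and 622.8 CPM with IL-7, at 575.5 and 564.7 CPM without, and at 158.7 and 154 CPM without IL-7 with CXCL12. In the CXCR4-deficient cultures it was at 641.5 and 714.8 CPM alone and at 822.8 and 848.7 CPM with CXCL12. The same 2 groups were lowest for both genes. Across the 9 group means of log2 CPM the pair had a Pearson r of 0.94 and a Spearman rho of 0.62, a description over groups that share libraries and culture conditions.

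**Figure D1:**
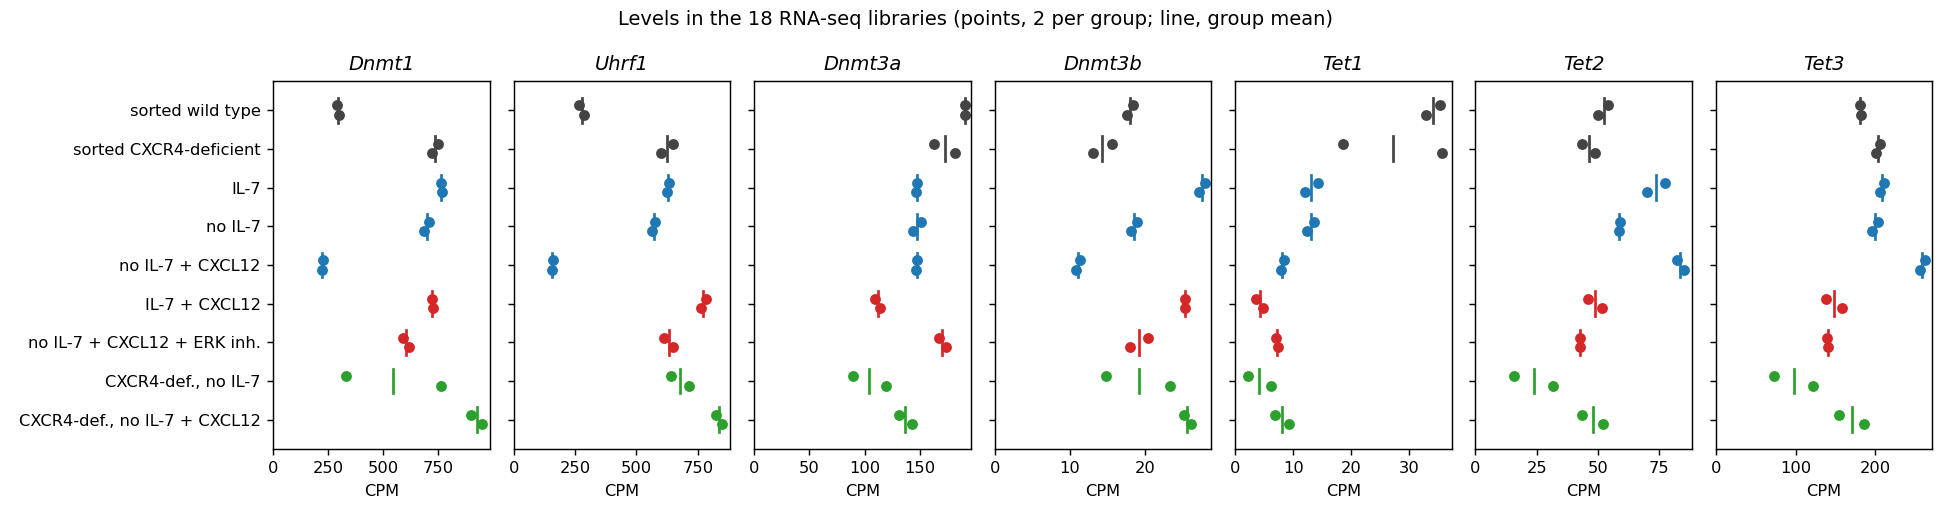
Levels of the 7 members in CPM (x axis, one scale per gene, from 0) in the 9 groups (y axis); points are the 2 libraries of a group, lines their mean, and colours the sorted cells (grey), the first set of cultures (blue), the set high in Gapdh (red) and the CXCR4-deficient cultures (green). Dnmt1 and Uhrf1 were lowest without IL-7 with CXCL12 (220.5 to 226.3 and 154 to 158.7 CPM), where Tet2 and Tet3 were highest.

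In the sorted cells, the question is how pre-B cells that lack CXCR4 differ from wild type. Dnmt1 was 2.51-fold and Uhrf1 2.26-fold higher in the cells labelled CXCR4-deficient (log2 1.33 ± 0.26 SE, adjusted p = 0.0018, and 1.18 ± 0.08, adjusted p = 5.2e-07, edgeR's quasi-likelihood test adjusted over all genes). The other 5 members did not pass the test, so 2 of 7 were called, both higher, where 34.2% of all genes were called, 16.6% higher and 17.6% lower. Without each of the 4 libraries in turn the change was 1.29 to 1.35 for Dnmt1 and 1.11 to 1.23 for Uhrf1, with adjusted p of at most 0.022. Without deficient replicate 2, the one with more Cxcr4 and less myeloid RNA, the values were 1.35 and 1.23, and without deficient replicate 1 they were 1.29 and 1.11. A fit without the culture library that stood apart, added after the data were seen, also called Dnmt3a (-0.15) and Dnmt3b (-0.34) lower. That fit called more of all genes too, so these calls are not a result about the members. With all libraries the de novo and TET genes did not pass. Dnmt3a was at 190.9 and 191.3 CPM in wild type and at 162.9 and 182.5 CPM in deficient cells, a log2 difference of -0.15 with a 95% interval of -0.4 to 0.11. Tet3 was at 180.6 and 181.6 against 205.5 and 200.8 CPM (interval -0.22 to 0.56). Tet1, at 35.3 and 32.9 CPM in wild type, was at 18.6 CPM in deficient replicate 1 and at 35.6 CPM in the other (replicate 2), so the groups overlapped. Markers of earlier and later B cell stages moved with the genotype. The 8 pro-B and progenitor markers summed to 532.7 and 568.4 CPM in wild type and to 1249.3 and 1795 CPM in deficient cells (6 of 8 higher, 1 lower), and the 8 mature B cell markers to 1548.8 and 1464.1 against 596.2 and 757.5 CPM (7 of 8 lower). Their part in the members' changes was not tested. In bulk RNA, fewer cells that express a gene and less RNA of it per cell cannot be told apart.

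Removal of IL-7 was compared next, since this cytokine drives proliferation of pre-B cells and its loss precedes light chain rearrangement. Of the 7 members only Dnmt3b passed the test, and 11.8% of all genes did, 5.60% higher and 6.23% lower. Dnmt3b went from 28 and 27.2 CPM with IL-7 to 19 and 18.2 CPM without (log2 -0.57 ± 0.17, adjusted p = 0.044). The 2 groups did not overlap. The call did not hold: without each of the 4 libraries in turn, IL-7 replicates 1 and 2 and no-IL-7 replicates 1 and 2, the adjusted p was 0.2, 0.14, 0.19 and 0.24, with log2 changes of -0.54 to -0.6. Dnmt1 (-0.13, interval -0.68 to 0.42) and Uhrf1 (-0.14, interval -0.31 to 0.03) did not pass. A fit without the library that stood apart takes it out of the shared estimate of spread. There Dnmt1 (-0.16), Uhrf1 (-0.16), Dnmt3b and Tet2 (-0.35) were called lower, and more of all genes were called too. Stromal markers summed to 327.4 and 612.9 CPM with IL-7 and to 821.4 and 813.3 CPM without, though no single one of the 8 passed, and their part was not tested.

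Addition of CXCL12 to cultures without IL-7 asks what the chemokine does when the cytokine is gone. The maintenance pair and Dnmt3b were lower with it. Uhrf1 was 3.65-fold lower (log2 -1.87 ± 0.08, adjusted p = 5.3e-08) and Dnmt1 3.13-fold lower (-1.64 ± 0.26, adjusted p = 0.00057). Dnmt3b was at 11.4 and 10.8 CPM, below its 19 and 18.2 CPM without CXCL12 (-0.74 ± 0.17, adjusted p = 0.0065). In all, 3 of 7 members were called, all of them lower, where 30.6% of all genes were called, 17.3% higher and 13.2% lower. Dnmt1 and Uhrf1 stayed called without each library in turn, at log2 changes of -1.67 to -1.62 and -1.89 to -1.84. Dnmt3b lost its call without replicate 2 of the cultures with CXCL12 (adjusted p = 0.053), and with the 2 nearly identical libraries of each group summed to 1 (adjusted p = 0.14).

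Dnmt3a and the TET genes did not pass the test in this comparison. Dnmt3a was at 147.9 and 146.5 CPM with CXCL12 and at 150.9 and 144.4 CPM without, a log2 difference of 0 ± 0.12 (interval -0.26 to 0.25). Tet2 was at 82.4 and 85 CPM with CXCL12 against 58.9 and 58.6 CPM without, and Tet3 at 262.2 and 255.8 against 203 and 196.4 CPM, in both cases without overlap between the groups. Their fitted log2 changes, 0.51 ± 0.22 and 0.37 ± 0.18, did not pass (adjusted p = 0.1 and 0.13). Tet1 was at 8.34 and 7.98 CPM with CXCL12 and at 13.6 and 12.4 CPM without (-0.67 ± 0.36, adjusted p = 0.19). In the fit without the library that stood apart, Tet2 (0.41) and Tet3 (0.28) were called higher and Tet1 (-0.76) lower, and more of all genes were called too. In the fit of these 4 libraries alone 7 of 7 were called, Dnmt3a at -0.1. That fit called 10790 genes in all, against 4543 in the fit of all libraries.

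Markers of other cells and of other B cell stages differed in this comparison. The 8 stromal markers summed to 821.4 and 813.3 CPM without CXCL12 and to 1834.4 and 1819.6 CPM with it, and 4 of 8 were called higher. The 9 myeloid markers summed to 281.4 CPM in each library without CXCL12 and to 702.8 and 708.2 CPM with it, and 1 of 9 was called higher. The mature B cell markers summed to 658.3 and 644.6 against 1010.9 and 982.7 CPM, with 4 of 8 higher. The pro-B and progenitor markers summed to 2156 and 2131.2 CPM without CXCL12 and to 1206.1 and 1183.9 CPM with it (2 of 8 lower), and the 6 plasma cell markers to 517.9 and 504.8 against 898.3 and 863.5 CPM (2 of 6 higher). The part of these in the members' changes was not tested.

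**Figure D2:**
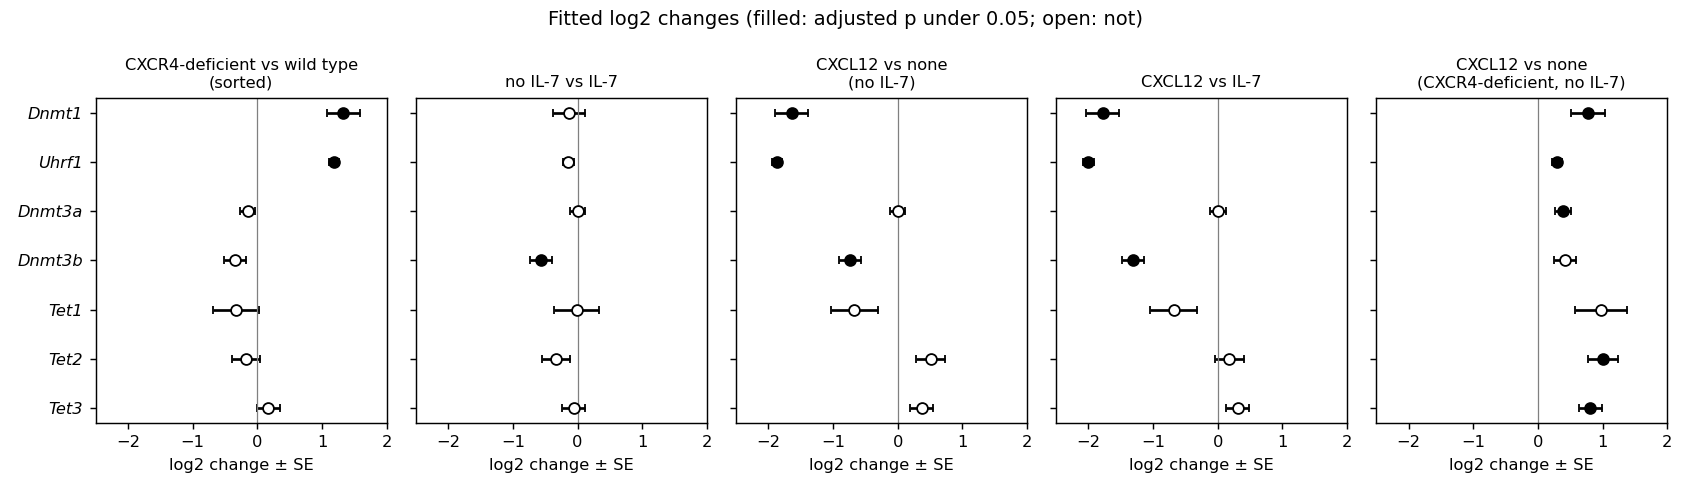
Fitted log2 changes of the 7 members (y axis) in 5 comparisons (panels), x axis in log2 units with bars of 1 SE; filled points passed an adjusted p of 0.05. Dnmt1 and Uhrf1 lie at 1.33 and 1.18 in the sorted cells and at -1.64 and -1.87 with CXCL12 without IL-7, while Dnmt3a lies at -0.15 and 0.

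When CXCL12 took the place of IL-7, the cultures that received one factor were compared with those that received the other. Uhrf1 was 4.01-fold lower under CXCL12 (-2 ± 0.08, adjusted p = 6.4e-09), Dnmt1 3.43-fold (-1.78 ± 0.26, adjusted p = 0.00014) and Dnmt3b 2.48-fold (-1.31 ± 0.17, adjusted p = 5.6e-05). These 3 of 7 stayed called without each library in turn, where 51.3% of all genes were called, 29.8% higher and 21.5% lower. This comparison shares its CXCL12 libraries with the one before and its IL-7 libraries with the removal of IL-7. In it 9 of 9 myeloid and 8 of 8 stromal markers were higher, whose part was not tested. Without the library that stood apart, Tet1 (-0.8, adjusted p = 0.014) and Tet3 (0.19, adjusted p = 0.033) were called too. For Dnmt3b the fold lower was 1.49 on removal of IL-7, 1.67 on addition of CXCL12 and 2.48 over both. For Dnmt1 the same values were 1.1, 3.13 and 3.43.

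Since DNMT1 and UHRF1 act at the replication fork, their levels were set beside those of 26 S phase genes, among them the Mcm genes and Rrm2. All 26 were called higher in the sorted CXCR4-deficient cells (median log2 1.08, against -0.01 over all genes) and all 26 lower with CXCL12 without IL-7 (median -1.71, against 0.09). Their summed level was 2326.3 and 2311.9 CPM in sorted wild-type cells, 4992.5 and 4978 CPM in cultures that had lost IL-7, and 1610.3 and 1608.1 CPM after CXCL12 alone. Per unit of that sum, Dnmt1 was at a log2 of -2.82 and -2.86 without IL-7 and at -2.83 and -2.87 with CXCL12, so its ratio to S phase genes differed by -0.01 between the group means while its level was 3.13-fold lower. Uhrf1 was at -3.12 and -3.14 against -3.34 and -3.38, a difference in the ratio of -0.23. Between the sorted genotypes the ratio differed by 0.3 for Dnmt1 and by 0.15 for Uhrf1. In all libraries but 1, Dnmt1's ratio lay between -3.17 and -2.65. The exception was again replicate 1 of the CXCR4-deficient cultures without IL-7, at -4.37, where S phase genes summed to 6805.6 CPM, beside 6848.4 CPM in replicate 2. Uhrf1's ratio there was -3.41. With 18 genes of G2 and M phase in place of the S phase list, the ratio of Dnmt1 differed by -0.16 on addition of CXCL12 and by -0.84 between the sorted genotypes, and that of Uhrf1 by -0.37 and -0.99, so the sign in the sorted cells turned with the list.

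**Figure D3:**
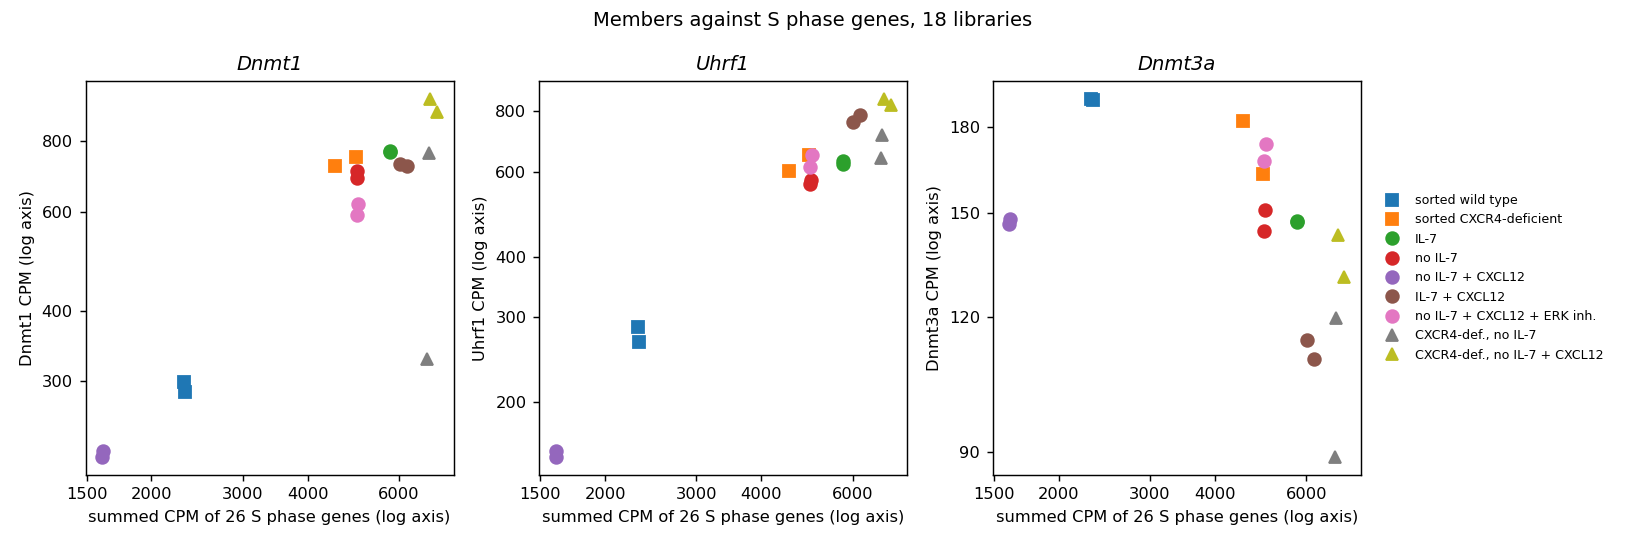
Levels of Dnmt1, Uhrf1 and Dnmt3a in CPM (y axes, log scale) against the summed CPM of 26 S phase genes (x axes, log scale) in the 18 libraries, one point each; colours are groups, squares sorted cells, circles cultures and triangles CXCR4-deficient cultures. Dnmt1 and Uhrf1 rise along the x axis with 1 library off the line for Dnmt1 (328.4 CPM), and Dnmt3a does not.

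Partners of maintenance were counted as a list of 11 genes, which include the fork clamp Pcna and the DNA ligase Lig1, the PCNA-associated factor Pclaf (2810417H13Rik in the table), and Hells with Cdca7, which remodel nucleosomes for methylation. In the sorted CXCR4-deficient cells 7 of 11 were called, each of them higher, where 16.6% of all genes were (median log2 0.58, against -0.01 over all genes), led by Pclaf (1.69 ± 0.08), Cdca7l (1.3 ± 0.07), Lig1 (1.32 ± 0.14) and Cdca7 (0.71 ± 0.08). On removal of IL-7, in which Dnmt1 and Uhrf1 did not pass, 3 of 11 were lower, Cdca7 (-0.69), Cdca7l (-0.54) and Uhrf2 (-0.7), where 6.23% of all genes were. With CXCL12 without IL-7, 9 of 11 were lower (median -1.31, against 0.09) where 13.2% of all genes were, and Usp7 (-0.23) and Zbtb24 (0.13) did not pass. Cdca7 went from 145.6 and 146.2 to 31.5 and 30.6 CPM (-2.23 ± 0.08), and Pclaf (-2.07 ± 0.08), Cdca7l (-1.31 ± 0.07) and Lig1 (-1.91 ± 0.14) followed by p. The list shares its fork genes with cell division, so its counts are not independent of those of the S phase list.

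De novo partners are chromatin proteins that guide or oppose DNMT3 enzymes, and their share of calls lay near that of all genes in the 3 comparisons given. In the sorted CXCR4-deficient cells 4 of 12 were called, where 34.2% of all genes were, all 4 of them higher: the H3K36 methyltransferase Nsd2 (Whsc1 in the table, 1.04 ± 0.1), Ehmt2 (0.75 ± 0.09), Trim28 (0.54 ± 0.09) and Ezh2 (0.62 ± 0.11). With CXCL12 without IL-7 Nsd2 (-1.12 ± 0.1), Trim28 (-0.79 ± 0.09) and Ezh2 (-0.73 ± 0.11) were lower. Dnmt3l, the catalytically inactive cofactor, was higher (1.59 ± 0.49, adjusted p = 0.036), with the widest SE of these genes, so its change is the least certain. In all, 4 of 12 were called where 30.6% of all genes were. The list's median change there was -0.15, against 0.09 over all genes. On removal of IL-7 only Trim28 of 12 passed (-0.37 ± 0.09), where 11.8% of all genes did.

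A list of 10 genes held readers of methylated CG and relatives of the MBD family, of which MBD3, MBD5 and MBD6 are not known to be selective for methylated CG. In the sorted CXCR4-deficient cells 2 were higher and 1 lower, 3 of 10 where 34.2% of all genes were called. Mbd4, a glycosylase that excises thymine opposite guanine, rose from 63.9 and 55.3 to 105.3 and 96.9 CPM (0.76 ± 0.13). Mbd6 was higher too (0.74 ± 0.15) and Zbtb4 lower (-0.47 ± 0.13). With CXCL12 without IL-7 Zbtb4 went the other way, from 27.5 and 25.6 to 53.3 and 52.6 CPM (1 ± 0.13), and Mbd2 was lower (-0.5 ± 0.08), 2 of 10 where 30.6% of all genes were called. On removal of IL-7 Mbd4 (0.79 ± 0.13) and Mbd1 (0.31 ± 0.07) were higher, 2 of 10 where 11.8% of all genes were called.

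Of 12 listed TET partners and suppliers of their substrate 2-oxoglutarate, 11 passed the filter. Ogt, the O-GlcNAc transferase that binds TET2 and TET3, was at 853.8 and 805.2 CPM in sorted wild-type and at 510.6 and 540.4 CPM in sorted CXCR4-deficient cells (-0.66 ± 0.11, adjusted p = 0.00069). It was at 409.3 and 397.5 CPM without IL-7 and at 596.9 and 602.3 CPM with CXCL12 (0.57 ± 0.11, adjusted p = 0.0024). In the sorted cells 3 of 11 were higher and 1 lower, with Gadd45b (1 ± 0.19), Idh2 (0.44 ± 0.09) and D2hgdh (0.39 ± 0.12) as the higher ones, 4 of 11 where 34.2% of all genes were called. With CXCL12 Gadd45g was higher as well (1.21 ± 0.3), and 3 of 11 were called, where 30.6% of all genes were called.

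Genes of base excision were called in both directions. With CXCL12 without IL-7 the glycosylases Neil3 (-1.48 ± 0.08) and Ung (-1.84 ± 0.18) were lower while Neil1 (0.83 ± 0.14) and Smug1 (0.69 ± 0.13) were higher, in all 3 of 12 lower and 2 higher, where 30.6% of all genes were called. Neil1 was at 119.9 and 113.2 CPM without CXCL12 and at 210.2 and 204.9 CPM with it. In the sorted CXCR4-deficient cells Neil3 (2.27 ± 0.09), Apex1 (1.63 ± 0.24) and Ung (0.63 ± 0.17) were higher and Polb lower (-0.48 ± 0.15), 4 of 12 where 34.2% of all genes were called. On removal of IL-7 Neil3 (0.54 ± 0.08) and Neil1 (0.76 ± 0.14) were higher and Apex1 (-0.98 ± 0.22) and Ung (-0.73 ± 0.17) lower, 4 of 12 where 11.8% of all genes were called.

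The S-adenosylmethionine cycle supplies the methyl group. Mat2a, which makes S-adenosylmethionine, was at 322.2 and 330.1 CPM with IL-7, at 215.1 and 216.2 CPM without (-0.6 ± 0.07) and at 155.6 and 158.4 CPM with CXCL12 (-0.46 ± 0.07 against no factor). Adk, the adenosine kinase, was lower in both steps (-0.55 ± 0.09 and -0.82 ± 0.09), so that 2 of 9 were lower on removal of IL-7, where 11.8% of all genes were called. With CXCL12 Ahcy was lower (-1.38 ± 0.23) and Ahcyl1 higher (0.27 ± 0.08), for 3 of 9 lower and 1 higher, where 30.6% of all genes were called. In the sorted CXCR4-deficient cells 3 of 9 were higher and 2 lower, where 34.2% of all genes were called, led by Ahcy (2.83 ± 0.28), Adk (0.77 ± 0.1), Mat2b (-0.45 ± 0.06) and Ahcyl2 (-1.12 ± 0.19). Ahcy was at 2.02 and 1.48 CPM in sorted wild-type cells, and near-identical copies may share its reads, so its value is uncertain.

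**Figure D4:**
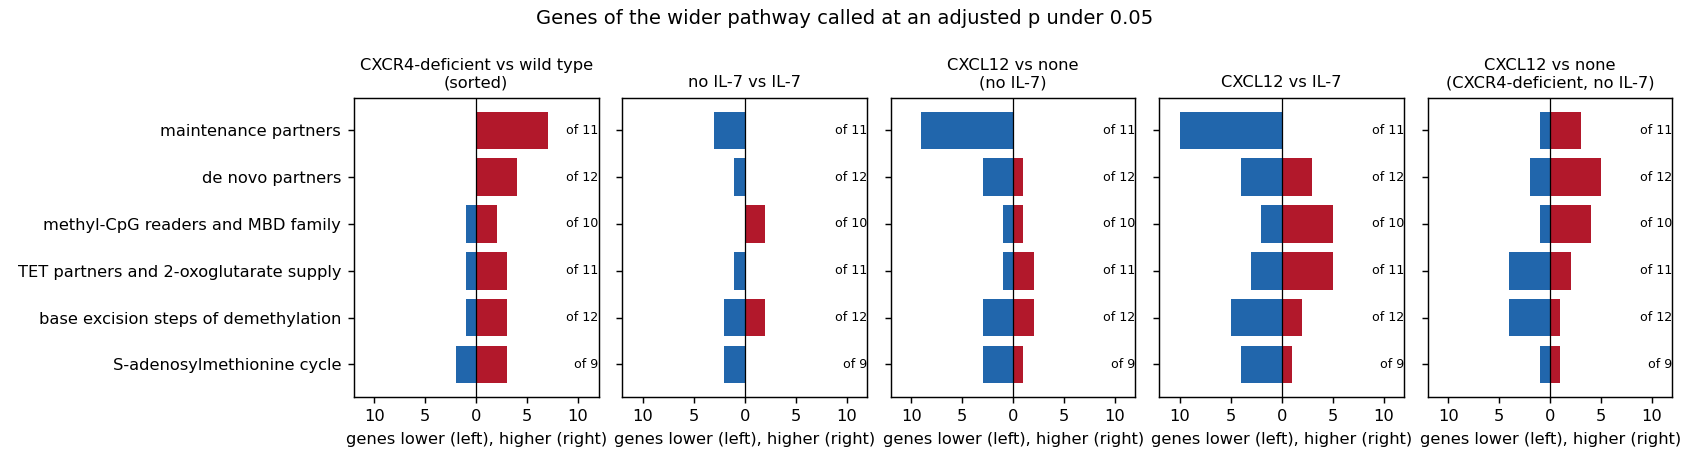
Number of genes of 6 pathway lists (y axis) called lower (blue, left of 0) or higher (red, right of 0) at an adjusted p under 0.05 in 5 comparisons (panels), with the number tested at the right edge. Of 11 maintenance partners 7 were higher in sorted CXCR4-deficient cells and 9 lower with CXCL12 without IL-7, while the other lists were mixed in the second of these.

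The CXCR4-deficient cultures ask whether the answer to CXCL12 needs its receptor. There no member was called lower with CXCL12. Dnmt1 was at 328.4 and 761.4 CPM alone and at 901.8 and 950.4 CPM with CXCL12 (log2 0.77 ± 0.26, adjusted p = 0.039). In all, 5 of 7 were called, each of them higher, where 33.8% of all genes were called, 12.8% higher and 21.0% lower: Uhrf1 (0.3 ± 0.08), Dnmt3a (0.39 ± 0.12), Tet2 (1.01 ± 0.23) and Tet3 (0.81 ± 0.18) beside Dnmt1. These calls rest on few libraries. Without replicate 1 of the group with CXCL12 all 5 lost their call (adjusted p = 0.059 to 0.088), and likewise without its replicate 2 (0.17 to 0.18). In the fit of these 4 libraries alone the adjusted p was 0.42 for each member, with log2 changes close to those above. DESeq2 called 7 of 7, and 6290 genes in all. Without replicate 1 of the group without CXCL12, the log2 change of Dnmt1 was 0.29, that of Tet2 0.61 and that of Tet3 0.49, and that of Dnmt3a lost its call (0.2, adjusted p = 0.089). Without replicate 2 of that group the log2 change was 1.5 for Dnmt1, 1.59 for Tet2 and 1.24 for Tet3.

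In replicate 1 of the deficient cultures without IL-7 every member lay below its level in replicate 2. The log2 ratio of the first to the second was -1.45 for Tet1, -1.21 for Dnmt1, -0.99 for Tet2, -0.76 for Tet3, -0.65 for Dnmt3b, -0.43 for Dnmt3a and -0.16 for Uhrf1, where all genes had a median of 0 and an SD of 0.94. Of all genes tested 6.13% lay lower than Tet1 and 7.7% lower than Dnmt1 in this ratio. The 8 pro-B and progenitor markers summed to 4900 CPM there and to 2641.6 CPM in its replicate, and the part of this in the members' levels was not tested.

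The difference between genotypes in the answer to CXCL12 was tested as an interaction, sufficient minus deficient, across 2 sets of cultures. It was -2.41 ± 0.36 for Dnmt1 (adjusted p = 0.00066), -2.17 ± 0.11 for Uhrf1 (adjusted p = 8.8e-07), -1.16 ± 0.24 for Dnmt3b (adjusted p = 0.0049) and -1.65 ± 0.54 for Tet1 (adjusted p = 0.042). So 4 of 7 passed, all lower, where 25.2% of all genes were called, 13.1% higher and 12.1% lower. Without each of the 8 libraries in turn, Dnmt1 ranged from -3.15 to -2.03 and Uhrf1 from -2.25 to -2.15, each called every time. The call of Tet1 was lost without each of the 4 sufficient libraries (adjusted p = 0.084 to 0.11), without each library of the deficient cultures with CXCL12 (0.056 and 0.15) and without replicate 1 of those without (-1.17, adjusted p = 0.06). Over the 8 libraries left out in turn, Tet1 ranged from -2.55 to -1.17. Dnmt3b had an adjusted p of 0.054 in the fit of these 8 libraries alone and of 0.065 with nearly identical libraries summed. Dnmt3a (-0.4 ± 0.16), Tet2 (-0.5 ± 0.32) and Tet3 (-0.43 ± 0.25) did not pass with all libraries. Of the maintenance partners 9 of 11 differed in the same direction, Cdca7 by -2.13 ± 0.11 and Pclaf by -2.11 ± 0.11.

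In the set of cultures high in Gapdh, IL-7 with CXCL12 was compared with ERK inhibitorII and CXCL12 without IL-7. The groups differ both in IL-7 and in the inhibitor, so loss of the one and addition of the other cannot be told apart. ERK is a kinase that relays signals of growth factor and chemokine receptors. Dnmt3a was at 109.8 and 114.3 CPM with IL-7 and at 167.7 and 173.6 CPM with the inhibitor (log2 0.61 ± 0.12, adjusted p = 0.0051), and Uhrf1 at 784.5 and 761.7 against 614.5 and 650 CPM (-0.29 ± 0.08, adjusted p = 0.035). So 1 of 7 was called higher and 1 lower, where 11.0% of all genes were called, 6.50% higher and 4.54% lower. Uhrf1 lost its call without each of the 4 libraries (adjusted p = 0.093 to 0.25). Dnmt3a lost its call in 3 of the 4 cases, with an adjusted p of 0.073 without replicate 1 with IL-7, and of 0.05, rounded from just above the threshold, without its replicate 2 and without replicate 2 of the inhibitor. Dnmt1 did not pass (-0.26, interval -0.81 to 0.29). Without the library that stood apart, Dnmt1 (-0.29) and Dnmt3b (-0.43) were called as well, and more of all genes were called too. Stromal markers were higher with the inhibitor in 6 of 8 cases, at sums of 49.4 and 52.1 against 14.3 and 13.8 CPM. Myeloid markers summed to 1884.8 and 1741.6 CPM with both factors and to 3301.5 and 3366.4 CPM with the inhibitor (3 of 9 higher), and mature B cell markers to 375.2 and 362.1 against 267.7 and 273.1 CPM (3 of 8 lower, 1 higher). The part of these in the members' changes was not tested.

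Comparisons across the 3 sets hold the factor and the set together, which cannot be told apart, and are given as values. Under CXCL12 without IL-7, libraries with the inhibitor had more Uhrf1 (2.02 ± 0.08), Dnmt1 (1.44 ± 0.26) and Dnmt3b (0.79 ± 0.17) and less Tet2 (-0.98 ± 0.22) and Tet3 (-0.88 ± 0.18) than those without, 5 of 7 members where 56.9% of all genes were called, 26.9% higher and 30.0% lower. Between the genotypes with CXCL12, deficient cultures had more Uhrf1 (2.42 ± 0.08), Dnmt1 (2.05 ± 0.26) and Dnmt3b (1.2 ± 0.17) and less Tet2 (-0.81 ± 0.22) and Tet3 (-0.61 ± 0.18), where 63.0% of all genes were called, 27.3% higher and 35.7% lower. Tet2 and Tet3 lost that call without replicate 1 of the deficient cultures with CXCL12 (adjusted p = 0.067 and 0.1). Without either factor, deficient cultures had less Tet1 (-1.67 ± 0.39), Tet2 (-1.31 ± 0.23), Tet3 (-1.04 ± 0.18) and Dnmt3a (-0.5 ± 0.12) and more Uhrf1 (0.25 ± 0.08), where 65.6% of all genes were called, 31.0% higher and 34.6% lower. These values moved with the library that stood apart: Tet1 was at -1.16 and Tet2 at -0.96 without it and at -2.57 and -1.89 without its replicate. Uhrf1 lost its call without each of the sufficient libraries (adjusted p = 0.058 and 0.083). Cultures with IL-7 and CXCL12 had less Tet1 (-1.61 ± 0.37) and Dnmt3a (-0.39 ± 0.12) and more Uhrf1 (0.3 ± 0.08) than those with IL-7 only, where 31.8% of all genes were called, 15.3% higher and 16.5% lower. Uhrf1 and Dnmt3a lost their calls without each of the 4 libraries there (adjusted p = 0.062 to 0.16 and 0.052 to 0.091), and Tet1 without replicate 1 with both factors (adjusted p = 0.052). Without the library that stood apart, Dnmt1 (-0.13), Tet2 (-0.65) and Tet3 (-0.55) were called lower too, and more of all genes were called. Markers of other cells differed between these 2 groups by far more than the members: the T cell gene Cd3e was at 0.0439 and 0.0862 CPM with IL-7 only and at 8.17 and 7.51 CPM with both factors, and 5 of 6 T cell, 4 of 5 NK cell and 8 of 9 myeloid markers were called higher and 7 of 8 stromal markers lower. Myeloid markers summed to 155.7 and 204.8 against 1884.8 and 1741.6 CPM, stromal markers to 327.4 and 612.9 against 14.3 and 13.8 CPM, NK cell markers to 2.02 and 2.2 against 15.1 and 14.2 CPM, and T cell markers to 71.4 and 69.5 against 110.7 and 99.6 CPM. The part of these in the members' changes was not tested.

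The order of groups differed between members. Dnmt3a was highest in sorted wild-type cells (mean 191.1 CPM) and lowest in CXCR4-deficient cultures without CXCL12 (104.5 CPM), whose libraries at 89.1 and 119.9 CPM overlapped those with both factors. The cultures with IL-7, without it and with CXCL12 alone held 3 neighbouring places, at means of 147.3, 147.7 and 147.2 CPM, and overlapped. Dnmt3b was highest with IL-7 (27.6 CPM) and lowest with CXCL12 alone (11.1 CPM). CXCR4-deficient cultures with CXCL12 and cultures with both factors, at 25.6 and 25.4 CPM, overlapped next below IL-7, and 4 groups between 18.1 and 19.2 CPM overlapped each with the next.

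Tet1 was highest in the cells taken directly from mice. Its mean was 34.1 CPM in sorted wild-type cells and 27.1 CPM in sorted CXCR4-deficient ones, which overlapped, and it lay between 2.19 and 14.2 CPM in every cultured library. Tet2 was highest with CXCL12 alone (83.7 CPM), then with IL-7 (73.8 CPM) and without IL-7 (58.8 CPM), 3 groups that did not overlap, and lowest in CXCR4-deficient cultures without CXCL12 (15.8 and 31.6 CPM). Tet3 was highest with CXCL12 alone too (259 CPM), above cultures with IL-7 (208.5 CPM), sorted CXCR4-deficient cells (203.1 CPM) and cultures without IL-7 (199.7 CPM), of which each overlapped the next. Across the 9 group means the Pearson r of Tet2 with Tet3 was 0.93 (Spearman rho 0.82), of Tet1 with Dnmt3a 0.86 (0.82), and of Dnmt1 with Tet3 -0.24 (0.03).

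The ratios of Tet3, Tet2 and Dnmt3a to Dnmt1 shifted between groups. The log2 ratio of Tet3 to Dnmt1 CPM was 0.21 in both libraries with CXCL12 alone, -1.8 and -1.81 without IL-7 and -1.85 and -1.9 with it. In sorted cells it was -0.67 and -0.72 in wild type and -1.87 and -1.85 in CXCR4-deficient. It was between -2.64 and -2.08 in all libraries of the other 4 groups. For Tet2 the same ratio was -1.46 and -1.37 with CXCL12 alone, against -3.59 and -3.55 without IL-7. For Dnmt3a it was -0.61 and -0.59 with CXCL12 alone, against -2.23 and -2.25 without IL-7. In sorted cells that of Dnmt3a was -0.59 and -0.65 in wild type and -2.2 and -1.99 in CXCR4-deficient. With all libraries Dnmt1 was called in both comparisons, and Dnmt3a, Tet2 and Tet3 in neither. The shift is therefore not particular to the TET genes. The ratios of 2 genes hold their lengths, so only their differences between groups can be read.

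Genes with the most similar pattern were taken as the 3 highest Pearson correlations over the 9 group means, among 9071 genes whose mean log2 CPM reached 3. For Dnmt1 they were Pole (0.9929), Clspn (0.99) and Timeless (0.9893), and for Uhrf1 they included Tmpo (0.99) and Rad54l (0.9885). Dnmt3b was nearest to Ints4 (0.9819), Dnmt3a to Ggta1 (0.9131), Tet1 to Fam160b1 (0.9581), Tet2 to Rbbp6 (0.9846) and Tet3 to Zscan25 (0.982). These values rest on 9 points and were not tested.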

How the data were processed

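The deposited RNA-seq table holds raw counts of 23762 genes in 18 libraries (9 groups). Per the labels' protocols they came from flow-sorted B cells and a stranded kit for polyadenylated RNA. Tools named in the submitters' processing notes are featureCounts, STAR, Picard, MACS2, BWA and bedtools, with genome build mm9. Versions, roles, annotation and how strand was handled in counting are not given in the sources used here, so overlapping genes and near-identical copies are uncertain. The members and lists were chosen with earlier results of these data known.

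Unchanged deposited counts of all groups entered 1 fit in edgeR 4.0.16 (R 4.3.3), with TMM scaling, its default filter and the robust quasi-likelihood test. This gave 14862 genes and 11 comparisons, with Benjamini-Hochberg adjustment over all genes and a threshold of 0.05. The SE is the log2 change over the square root of F, and intervals are at 95%. Groups come from the labels. Named genes are the 7 members, up to 4 called genes of each list with the smallest p, Cxcr4, and the 3 genes of most similar pattern. A few genes that the rule would name are not reported here. Gapdh is outside this rule and was chosen after its values were seen. The test was also run on simulated data for the addition of CXCL12 to cultures without IL-7 (14296 genes, 200 of them changed). There it called 12.8% of true 1.5-fold changes, 55.6% at 2-fold and 80.4% at 4-fold, and 4.02% of its calls were false. The simulation drew each library independently, with the same spread per gene in all groups. In the deposited data the spread differs between groups and far more genes were called, so these rates need not hold for them. The 8 ATAC-seq peak lists are in mm9 coordinates, which the gene tables do not use, and were not used here. Alternatives were RLE size factors, 2 other filters, DESeq2 1.42.0, a replicate block, a fit without the other groups, a 2-fold threshold, each library left out, and others named below. Figures were drawn with matplotlib 3.10.9.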

Additional observations from a re-analysis of the deposited data

Results flagged for a closer look

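Of the 7 members, 4 had a change with CXCL12 that differed between CXCR4-sufficient and CXCR4-deficient cultures without IL-7 by the test of the difference itself. The difference of the log2 changes, sufficient minus deficient, was -2.41 for Dnmt1, -2.17 for Uhrf1, -1.16 for Dnmt3b and -1.65 for Tet1. The 2 genotypes were in different sets of cultures, so genotype and set cannot be told apart. The value of Tet1 lost its call without 7 of the 8 libraries in turn.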

How the results depend on the processing

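Over 1113 values of single members under the alternatives, 957 kept their side of the threshold, 103 lost and 52 gained a call. A turn of sign was counted apart only where at least 1 of the 2 fits made a call, which held for 1 value. That was Dnmt3b between genotypes without either factor, 0.04 with all libraries and -0.32 without replicate 2 of the deficient cultures (0.26 without replicate 1). The 957 include turns of sign without a call in either fit, as for Tet1 in the sorted cells. It was at -0.33 with all libraries and at -0.88 to 0.05 with each library left out. Causes of the shifts below were not tested. Counts are of all genes and then of members called, by edgeR unless DESeq2 is named. Where members are given without a count of all genes, they have no background beside them. Such a count is not a result about the members.

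Removal of IL-7 (1758 and 1 with all settings as in the report) gave 0 members with no filter, with the replicate block, without the 4 libraries high in Gapdh (1069 genes) and with nearly identical libraries summed (355 genes), each with 1 member at an unadjusted p under 0.05 and 1 called by DESeq2. It gave 2657 genes with DESeq2, 7299 and 5 in a fit of only the groups compared, and 34 and 0 when a change of at least 2-fold was tested (0 unadjusted). That threshold gave 1135 and 0 in the sorted cells (2 unadjusted), 366 and 1 for CXCL12 without IL-7, 1709 for CXCL12 replacing IL-7, 121 and 0 for the inhibitor replacing IL-7, 0 and 0 for CXCL12 in deficient cultures (559 genes unadjusted), 358 and 2 for the difference by genotype, 1574 and 0 for CXCL12 with IL-7, 3088 and 1 for the inhibitor under CXCL12, and 3091 and 0 or 3985 and 2 between genotypes without and with CXCL12. A fit of only the groups compared gave 10790 and 7 for CXCL12 without IL-7, 6 members for CXCL12 replacing IL-7, 6068 and 6 for the inhibitor replacing IL-7, 8238 and 5 for CXCL12 with IL-7, and 1299 and 2 for the difference by genotype. For CXCL12 in deficient cultures it gave 0 and 0 (261 genes unadjusted, and 6290 called by DESeq2), as did the fit without the libraries high in Gapdh (6079 genes unadjusted). Between genotypes without either factor it gave 2556 and 0 (3 members unadjusted, 5 called by DESeq2). With nearly identical libraries summed, CXCL12 without IL-7 gave 1149 genes and the difference by genotype 1083 and 2. The inhibitor replacing IL-7 gave 1 member with RLE size factors and 1 with no filter. CXCL12 with IL-7 gave 5 members with DESeq2 and 5 with the replicate block.

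Without the library that stood apart, an alternative chosen after seeing the data, the counts were 8033 and 4 in the sorted cells, 4999 and 4 for removal of IL-7, 7803 and 6 for CXCL12 without IL-7, 5 members for CXCL12 replacing IL-7, 4661 and 4 for the inhibitor replacing IL-7, and 7991 and 6 for CXCL12 with IL-7. With genes of G2 and M phase in place of S phase, the ratio changes of Dnmt1 were -0.16 with CXCL12 and -0.84 in the sorted cells, and those of Uhrf1 -0.37 and -0.99.

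Leaving out each library in turn gave 3137 to 4686 genes and 2 members in the sorted cells, 589 to 851 and 0 for removal of IL-7, 2257 to 2573 and 2 to 3 for CXCL12 without IL-7, 5505 to 5991 and 3 for CXCL12 replacing IL-7, 655 to 720 and 0 to 1 for the inhibitor replacing IL-7, and 0 to 8602 and 0 to 7 for CXCL12 in deficient cultures. It gave 1990 to 8377 and 3 to 7 for the difference by genotype, 3055 to 3168 and 0 to 1 for CXCL12 with IL-7, 6542 to 6974 and 5 for the inhibitor under CXCL12, and 8179 to 11038 with 4 to 7 and 7848 to 8228 with 3 to 5 between genotypes without and with CXCL12. Where this left a group with 1 library, that library was assumed to vary like the other groups.

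Replicate numbers were shared between groups, but the deviations of same-numbered libraries correlated at only -0.16 to 0.21, so they were not taken as pairs. With the replicate block the members called went to 0 for removal of IL-7, where Dnmt3b had an adjusted p of 0.058, and to 5 for CXCL12 with IL-7, where Tet2 and Tet3 reached 0.049 and 0.044. Depth limits Tet1 most, with 53 counts in its lowest library.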
